A study of Mus musculus with 6 samples.

Results

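The genes described here are 7 CC chemokines and 2 receptors that bring monocytes into inflamed tissue. They are Ccl2, Ccl7 and Ccl12, which act on CCR2, then Ccl3 and Ccl4, then Ccl6 and Ccl9, and the receptors Ccr1 and Ccr2. They were taken by symbol from the deposited count tables, where all 9 are among the 16533 genes listed. RNA was measured in mouse inferior vena cavae 24 h after the vessel had been tied off, which stops flow and lets a deep vein thrombus form. Each library pooled 3 thrombi with the vein around them. The mKO mice were Stingf/f Lyzm-Cre+/-, and the control mice were Stingf/f without Cre, with 3 pools in each genotype. Both genotypes carry the loxP-flanked allele of Sting1, which encodes the adaptor STING of the cytosolic DNA sensor cGAS, and both had the ligation, so no unligated or allele-free vein enters the comparison. Lyzm-Cre is a Cre recombinase driven from the Lyz2 locus, active in neutrophils, monocytes and macrophages. The wall cells, lymphocytes and platelets of an mKO vein are therefore outside its intended reach. No source used here states age or sex, and the sample titles call the groups Sting and WT mice. The design asks how myeloid loss of STING alters gene expression in the thrombosed vein.

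Chemokines are small secreted proteins that bind the vessel surface and direct leukocytes through G protein-coupled receptors. CCL2 and CCL7 are the main signals by which monocytes leave the marrow and enter tissue through CCR2, and CCL12 is a further CCR2 ligand of the mouse. CCL3 and CCL4 are made quickly by activated macrophages, neutrophils and lymphocytes, CCL3 acting in part through CCR1. CCL6 and CCL9 are rodent chemokines of the CCR1 group, made by resting myeloid cells. In venous thrombi, neutrophils arrive first and monocytes follow, and recruited monocytes take part in both the build-up and the resolution of the clot.

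The 6 libraries held 158579864 to 180068483 counts, with a median of 1255 to 1698 counts per gene, and the 9 genes took 0.173% to 0.255% of a library. The lowest count of any of the 9 genes was 650, for Ccl12 in mKO library 2, and counting error was minor against the differences between pools. Sting1 stood at 22.7, 21.4 and 28.7 CPM (the count divided by the library's TMM-scaled size, set to a common scale) in mKO libraries 1 to 3, against 25.1, 31.4 and 27.1 CPM in control libraries 1 to 3. Its log2 fold change, given throughout as mKO over control with its standard error (SE), was -0.20 (SE 0.14, edgeR adjusted p = 0.579). A gene-level count from the whole vein mixes cells inside and outside the reach of Cre, and no source used here names the deleted exons. Lyz2, the locus that carries Cre, stood at 642.5, 1149 and 1153 CPM in mKO libraries, against 1429.6, 1759 and 1885 CPM in control libraries. In mKO library 3, Ckm of skeletal muscle was high at 37.6 CPM and Th of sympathetic neurons was near 0 at 0.152 CPM. All 11 monocyte and macrophage markers and all 10 neutrophil markers were detected in the libraries, none at 0. Their summed levels were 2407 to 4196.5 CPM in mKO libraries and 2079 to 3462 CPM in control libraries for monocytes and macrophages. For neutrophils they were 13780 to 19211 CPM in mKO libraries and 9719.5 to 16037 CPM in control libraries. The monocyte and macrophage sum mainly follows Itgam, Cd14 and Chil3, with means of 993, 893 and 714 CPM in mKO and 772, 672 and 848 CPM in control. Csf1r, the next marker, averaged 202 CPM in mKO and 162 CPM in control, so the sum says little of the lower markers. Whether fewer cells of a type or less RNA per cell lies behind a lower level cannot be told apart in whole tissue.

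None of the 9 genes passed edgeR's quasi-likelihood test at an adjusted p of 0.05, where the share of all 16523 genes tested that passed was 0%. Under DESeq2, which called 2.79% of genes (1.47% higher and 1.33% lower in mKO), none passed either. By size of estimate, Ccl3 and Ccl4 had the highest, the CCR2 ligands and Ccl9 lay near 0, and Ccl6 and both receptors lay between. At an unadjusted p under 0.05, which 11.9% of all genes met (5.6% higher and 6.26% lower in mKO), 2 of the 9 genes were higher in mKO and 0 were lower. The groups did not overlap for 1 of the 9 genes, Ccl4, where 18.2% of all genes had no overlap, 8.76% with higher and 9.39% with lower mKO values. Of the 9 fold changes 7 were above 0, against 45.9% of all genes. The median of the 9 was 0.16 on the log2 scale, against -0.03 over all genes. Of those above 0, Ccl7 and Ccl9 were at -0.14 and -0.23 without mKO library 1 (edgeR). That library was the highest of the 6 for every gene but Ccr1, so the 9 signs are not independent. The pools set the precision: p-values rest on the spread between 3 pools a group, which edgeR and DESeq2 estimate in part from other genes. The exact permutation test cannot go below p = 0.1 with 3 against 3.

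**Figure D1:**
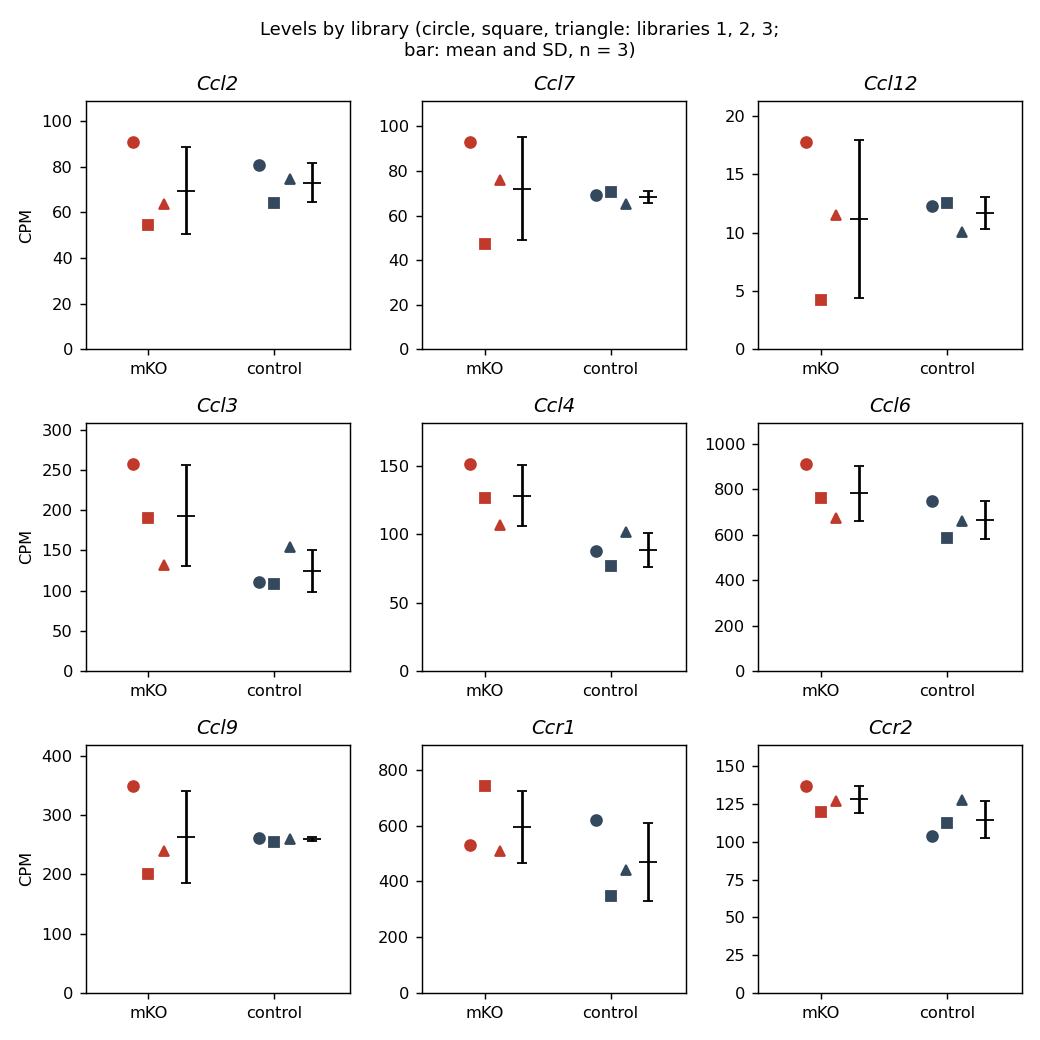
CPM of each of the 9 genes in the 3 mKO libraries (left of each panel) and the 3 control libraries (right), with circles, squares and triangles for libraries 1, 2 and 3 and bars for the mean and SD (n = 3). Control points lie close together for Ccl7, Ccl12 and Ccl9 while mKO points spread widely, and Ccl4 is the panel in which the groups do not overlap.

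The CCR2 ligands averaged nearly the same level in both genotypes, with very unequal mKO pools. Ccl2 (ENSMUSG00000035385), the best known monocyte attractant of the family, stood at 90.8, 54.4 and 63.6 CPM in mKO libraries 1 to 3, against 80.9, 63.9 and 74.5 CPM in control libraries 1 to 3. The mKO values fell on both sides of the control values. Its mean was 69.6 ± 18.9 CPM in mKO and 73.1 ± 8.57 CPM in control (SD, n = 3 each). The log2 fold change of Ccl2 was -0.07 (SE 0.20, 95% interval -0.54 to 0.40, edgeR adjusted p = 0.891). By the two-sided exact permutation test p was 0.7.

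Ccl7 (ENSMUSG00000035373), which shares CCR2 with Ccl2 and also acts on other CC receptors, stood at 92.9, 47.4 and 76.0 CPM in mKO libraries, against 69.2, 70.7 and 65.2 CPM in control libraries. Library 1 of mKO was the highest of the 6 and library 2 of mKO the lowest, with the controls bunched between. Ccl7 had a log2 fold change of 0.08 (SE 0.23, 95% interval -0.45 to 0.61, edgeR adjusted p = 0.896). Ccl12 (ENSMUSG00000035352), the lowest in CPM of the 9 genes, stood at 17.8, 4.25 and 11.5 CPM in mKO libraries, against 12.3, 12.6 and 10.1 CPM in control libraries. Again mKO library 1 was the highest and mKO library 2 the lowest. For Ccl12 the log2 fold change was -0.06 (SE 0.48, 95% interval -1.25 to 1.13, edgeR adjusted p = 0.967), an interval that leaves room for more than a doubling or a halving. For these 3 genes the sign rests on single pools: without mKO library 2 the edgeR log2 estimates were 0.08 for Ccl2 and 0.33 for Ccl12, and without mKO library 1 that of Ccl7 was -0.14.

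Ccl3 and Ccl4 had the highest estimates of the 9 genes. Ccl4 (ENSMUSG00000018930), also known as MIP-1 beta, stood at 151, 127 and 107 CPM in mKO libraries 1 to 3, against 87.7, 76.7 and 102 CPM in control libraries 1 to 3. All mKO values lay above all control values, although mKO library 3 and control library 3 were close. Its mean was 128 ± 22.3 CPM in mKO and 88.7 ± 12.5 CPM in control (SD, n = 3 each), a fold change of 1.45. The log2 fold change of Ccl4 was 0.53 (SE 0.17, 95% interval 0.13 to 0.93), with an unadjusted p of 0.0155 and an edgeR adjusted p of 0.327. The exact permutation p was 0.1, the smallest this design allows, and the DESeq2 adjusted p was 0.0784.

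Ccl3 (ENSMUSG00000000982), MIP-1 alpha, a ligand of CCR1, stood at 257, 191 and 132 CPM in mKO libraries, against 111, 108 and 155 CPM in control libraries. Libraries 1 and 2 of mKO were above every control, while mKO library 3 was below control library 3, so the groups overlap. Ccl3 had a log2 fold change of 0.64 (SE 0.26, 95% interval 0.02 to 1.25), with an unadjusted p of 0.0435, an edgeR adjusted p of 0.407 and a DESeq2 adjusted p of 0.188. By the exact permutation test p was 0.2. Leaving out any 1 library kept both estimates above 0, between 0.37 and 0.85 for Ccl3 and between 0.40 and 0.65 for Ccl4 with edgeR. Without mKO library 3, the mKO pool with the lowest Ccl3 and Ccl4, DESeq2 called both genes while edgeR called neither. DESeq2 put Ccl3 at 0.87 (adjusted p = 0.0248) and Ccl4 at 0.67 (adjusted p = 0.0371). In that fit, chosen after seeing the data, DESeq2 called 311 of 16527 genes. Leaving out any other library, it called 0 of the 9 genes. The neutrophil score, the mean log2 CPM of its 10 markers relative to the 6-library mean, was 0.28, 0.35 and -0.24 in mKO libraries 1 to 3, against 0.35, -0.68 and -0.05 in control libraries 1 to 3. The monocyte and macrophage score was 0.26, 0.03 and -0.12 in mKO libraries and 0.07, -0.20 and -0.06 in control libraries. With that score as a covariate in edgeR the estimates were 0.36 (SE 0.24, adjusted p = 0.730) for Ccl3 and 0.38 (SE 0.16, adjusted p = 0.619) for Ccl4. With a vessel wall score they were 0.42 (SE 0.29, adjusted p = 0.735) and 0.39 (SE 0.18, adjusted p = 0.599). No fit used the neutrophil score, and the part of any of these cells in the Ccl3 and Ccl4 values was not tested.

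**Figure D2:**
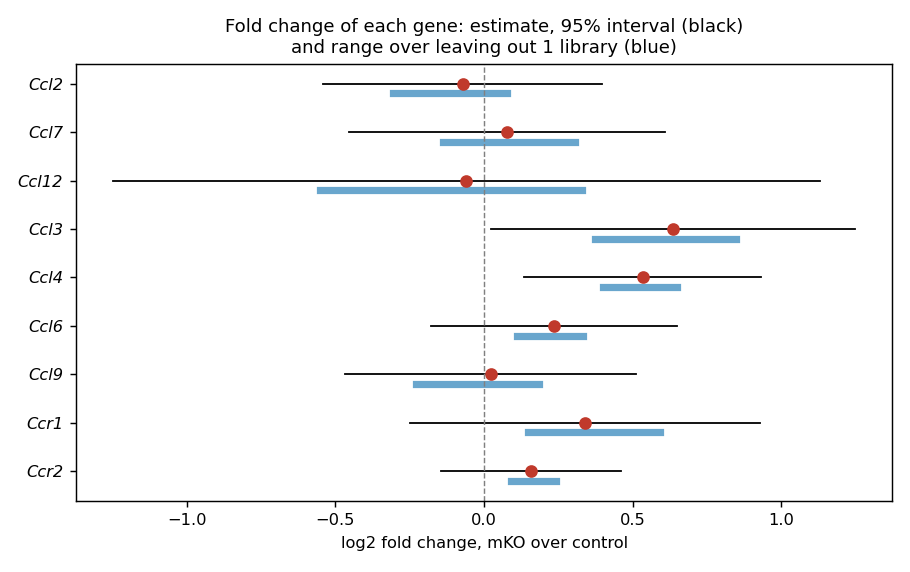
Log2 fold change of the 9 genes, mKO over control, as the edgeR estimate with its 95% interval (black) and the range of the estimate when each library is left out in turn (blue). Only the intervals of Ccl3 and Ccl4 lie above 0, while those of Ccl2, Ccl7, Ccl12 and Ccl9 are centred near 0 and that of Ccl12 is the widest.

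Ccl6 and Ccl9 are neighbouring genes of the same cluster on chromosome 11, and their estimates did not reach the size of Ccl3 or Ccl4. Ccl6 (ENSMUSG00000018927), the most abundant of the 9 genes, stood at 910.0, 761 and 672 CPM in mKO libraries, against 749, 583 and 659 CPM in control libraries. Only control library 1 reached into the mKO range. Ccl6 had a log2 fold change of 0.23 (SE 0.18, 95% interval -0.18 to 0.65, edgeR adjusted p = 0.592). Ccl9 (ENSMUSG00000019122), a macrophage and osteoclast product, stood at 349, 200.2 and 240.0 CPM in mKO libraries, against 262, 255 and 259.9 CPM in control libraries. The 3 controls were almost identical, and mKO values lay on both sides of them. The log2 fold change of Ccl9 was 0.02 (SE 0.21, 95% interval -0.47 to 0.51, edgeR adjusted p = 0.972), and without mKO library 1 it was -0.23. Ccl9 transcripts share runs of 50 or more bases, on either strand, with transcripts of 463 other genes. No source used here says how multi-matching reads were counted, so the level of Ccl9 is uncertain to that extent.

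Promoter sequence was compared because the 7 chemokine genes sit in 2 clusters on chromosome 11. In the reference order, one cluster runs Ccl2, Ccl7, Ccl11, Ccl12, Ccl8, Ccl1, the last without counts here. The other runs Ccl5, Ccl9, Ccl6, Ccl3, Ccl4. Within the first cluster the log2 fold changes were -0.07 for Ccl2, 0.08 for Ccl7, 0.22 for Ccl11, -0.06 for Ccl12 and 0.90 (SE 0.56) for Ccl8. Within the second cluster they were -0.94 (SE 0.19) for Ccl5, 0.02 for Ccl9, 0.23 for Ccl6, 0.64 for Ccl3 and 0.53 for Ccl4. RefSeq promoter entries of GRCm38.p6, each 300 bases around the gene's start, were matched for 6 of the 9 genes, namely Ccl3, Ccl6, Ccl9, Ccl12, Ccr1 and Ccr2. Ccl2, Ccl4 and Ccl7 are named only. In the first pair, capitals mark runs of 12 or more bases that Ccl6 and Ccl9 share. Ccl3 is shown as the gene with the highest estimate and Ccl12 as the one whose pools differed most, with capitals for any motif searched.
Ccl6, chr11:83593038-83593337 (minus strand): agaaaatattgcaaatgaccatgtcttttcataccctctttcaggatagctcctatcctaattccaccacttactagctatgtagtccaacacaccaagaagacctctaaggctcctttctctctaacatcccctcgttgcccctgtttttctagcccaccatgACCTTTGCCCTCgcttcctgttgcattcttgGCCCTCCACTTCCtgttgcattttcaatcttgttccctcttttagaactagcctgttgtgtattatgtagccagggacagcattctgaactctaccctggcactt
Ccl9, chr11:83578587-83578886 (minus strand): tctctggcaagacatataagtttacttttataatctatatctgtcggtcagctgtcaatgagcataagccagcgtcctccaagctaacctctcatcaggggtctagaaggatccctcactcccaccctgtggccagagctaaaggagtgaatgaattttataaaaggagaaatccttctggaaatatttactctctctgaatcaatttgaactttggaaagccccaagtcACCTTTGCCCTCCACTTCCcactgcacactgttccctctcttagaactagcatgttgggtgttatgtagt
Ccl3, chr11:83649329-83649628 (minus strand): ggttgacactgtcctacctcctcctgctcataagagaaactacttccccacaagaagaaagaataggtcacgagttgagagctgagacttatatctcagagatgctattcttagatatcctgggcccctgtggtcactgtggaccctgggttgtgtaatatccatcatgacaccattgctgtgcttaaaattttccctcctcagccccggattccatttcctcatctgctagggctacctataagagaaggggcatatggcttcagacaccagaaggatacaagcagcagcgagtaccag
Ccl12, chr11:82101595-82101894 (plus strand): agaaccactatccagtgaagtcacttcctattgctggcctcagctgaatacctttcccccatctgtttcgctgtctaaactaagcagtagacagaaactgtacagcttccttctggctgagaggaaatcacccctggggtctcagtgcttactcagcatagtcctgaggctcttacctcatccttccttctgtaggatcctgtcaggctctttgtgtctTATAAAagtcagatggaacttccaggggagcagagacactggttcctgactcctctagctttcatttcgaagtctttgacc
The longest run that Ccl6 and Ccl9 share is GCCCTCCACTTCC, 13 bases. It occurs in 3 of 32544 promoters, the Ccl6 and Ccl9 windows included. Shared runs cover 25 bases of the Ccl6 window and 19 bases of the Ccl9 window. Every other pair of the 6 windows shares at most 9 bases in a row. Both strands were searched for 5 motifs. TATAAA was found in Ccl12 and Ccl9, and 13.6% of all promoters hold it. The pattern TGANTCA, wider than the AP-1 site because its middle base is open, was found in Ccl9 alone, as TGAATCA. It is held by 7.79% of promoters. The NF-kB pattern GGGNNNNNCC was found in Ccl9 and Ccr1, against 51% of promoters. The PU.1 core GAGGAAGT (3.11% of promoters) and the interferon response pattern GAAANNGAAA (3.45%) were in none of the 6 windows. The Ccl3 window, whose gene had the highest estimate, holds none of the 5, and these matches describe letters in a window, not bound sites.

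The receptors differed in which library was high. Ccr1 (ENSMUSG00000025804, chromosome 9), the receptor for CCL3, CCL6 and CCL9 on neutrophils and monocytes, stood at 532, 743 and 509.6 CPM in mKO libraries 1 to 3, against 621, 347 and 442 CPM in control libraries 1 to 3. Library 2 of mKO was the highest and control library 2 the lowest, with overlap between the groups through control library 1. The log2 fold change of Ccr1 was 0.34 (SE 0.25, 95% interval -0.25 to 0.93, edgeR adjusted p = 0.587). Of the 10 neutrophil markers, 5 had both of these extremes (Mmp9, Cxcr2, Csf3r, S100a8 and S100a9) and the other 5 peaked elsewhere, while 3 of the 11 monocyte and macrophage markers had both (Csf1r, Itgam and Cd14). Csf3r, the G-CSF receptor, was at 1793, 2419 and 2190.2 CPM in mKO libraries and 2023, 1028 and 1632 CPM in control libraries. Cxcr2, the receptor for neutrophil chemokines, was at 704, 991 and 617 CPM in mKO libraries and 869, 388 and 482 CPM in control libraries. These 2 genes were picked after their values were seen, and the part of either cell type in the Ccr1 values was not tested.

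Ccr2 (ENSMUSG00000049103, chromosome 9), the receptor of inflammatory monocytes for CCL2, CCL7 and CCL12, stood at 137, 119.8 and 127 CPM in mKO libraries, against 104, 113 and 128 CPM in control libraries. Its SD over mKO pools on the log2 scale, 0.097, was the smallest of the 9 genes, and control library 3 lay inside the mKO range. The mean of Ccr2 was 128 ± 8.61 CPM in mKO and 115 ± 11.97 CPM in control (SD, n = 3 each). For Ccr2 the log2 fold change was 0.16 (SE 0.13, 95% interval -0.14 to 0.46, edgeR adjusted p = 0.617). Ccr2 transcripts share runs of 50 or more bases with transcripts of 23 other genes, which limits the certainty of its level in the same way as for Ccl9.

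Compared per length, as CPM per kilobase of mRNA averaged over the 6 libraries, Ccl6 led at 502, followed by Ccl3 at 207, Ccr1 at 188 and Ccl4 at 164. Then came Ccl2 at 87.8, Ccl7 at 87.7 and Ccl9 at 86.8, and Ccl12 at 21.3 and Ccr2 at 21.2 were lowest. The ranges over the 6 libraries did not overlap between Ccl6 and Ccl3, between Ccl4 and Ccl2 or between Ccl9 and Ccl12. All other neighbours in this order overlapped, with Ccl2 above Ccl7 in 3 of 6 libraries and Ccl3 above Ccr1 in 3 of 6. Lengths are those of the longest coding transcript in GENCODE M21, and with all exons of the gene as its length Ccl6 was at 402 and Ccl2 at 62.7 CPM per kilobase.

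The unevenness of the mKO pools was shared by most of the chemokines. Library 1 of mKO had the highest of the 6 values for every gene but Ccr1. Library 2 of mKO had the lowest of the 6 values for Ccl2, Ccl7, Ccl12 and Ccl9 and the highest for Ccr1. On the log2 scale, the SD over mKO pools was 0.50 for Ccl7, 1.06 for Ccl12 and 0.41 for Ccl9, against 0.061, 0.18 and 0.019 over control pools. The contrast was smaller for Ccl2 (0.38 against 0.17), Ccl3 (0.48 against 0.29), Ccl4 (0.25 against 0.20) and Ccl6 (0.22 against 0.18). It was reversed for Ccr1 (0.30 against 0.42) and Ccr2 (0.097 against 0.15). The SD was larger in mKO for 7 of the 9 genes, or 77.8%, against 54.1% of all genes, and no test was made of this. Without mKO library 1 it was larger for 4 of the 9 (46.7% of all genes). Without library 2 it was larger for 7 (41% of all genes) and without library 3 for 6 (48.9%), so the count depends most on library 1. Each of these sets an SD of 2 mKO pools against one of 3 control pools. Of the 11 monocyte and macrophage markers, 3 had the same order in mKO, highest in library 1 and lowest in library 2, namely Fcgr1, Ms4a7 and Mrc1. Another 5 were highest in library 2 among the mKO pools, so the list as a whole did not follow that order. Mrc1 and Ms4a7, of resident macrophages, are given as examples picked after their values were seen. Mrc1, the mannose receptor, was at 36.3, 14.2 and 23.7 CPM in mKO libraries and 24.8, 25.2 and 21.3 CPM in control libraries. Ms4a7 was at 14.0, 3.30 and 8.10 CPM in mKO libraries and 5.04, 6.24 and 5.73 CPM in control libraries. The part of these markers in the chemokine values was not tested.

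**Figure D3:**
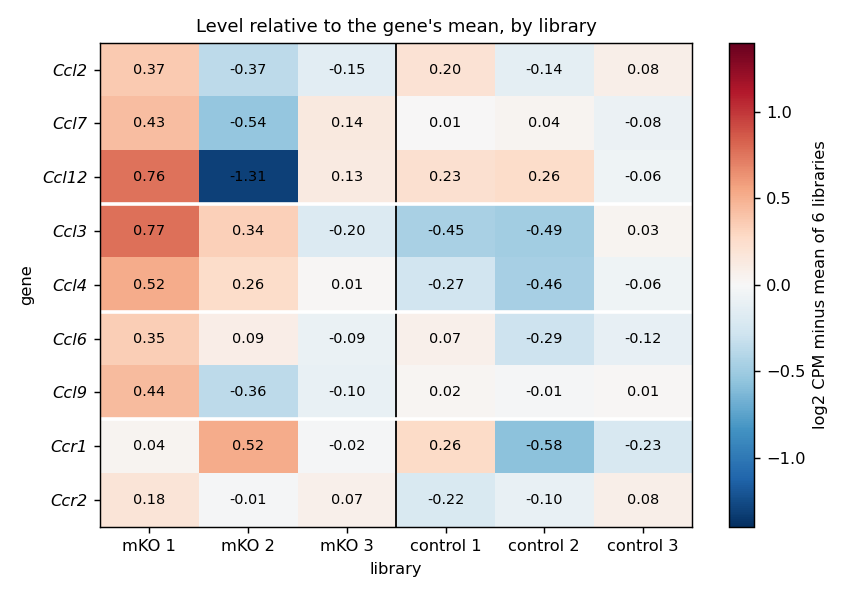
Log2 CPM of each of the 9 genes minus its mean over the 6 libraries, with mKO libraries left of the line and control libraries right. The column of mKO library 1 is high in all rows but Ccr1, and that of mKO library 2 is lowest for Ccl2, Ccl7, Ccl12 and Ccl9.

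Ratios within a library do not depend on its scaling. Counts were divided by the summed counts of 5 monocyte and macrophage markers, Csf1r, Cd68, Fcgr1, Adgre1 and Ms4a7. On this measure Ccl2 was at 0.171, 0.107 and 0.140 in mKO libraries, against 0.190, 0.179 and 0.188 in control libraries, so that all mKO values were lower. The difference of mean log2 ratios was -0.44, with an exact permutation p of 0.1. The separation of Ccl2 depends on the markers: with Csf1r alone the ratios were 0.464, 0.235 and 0.352 in mKO and 0.477, 0.428 and 0.446 in control, and these overlap (exact permutation p = 0.3). Leaving out Cd68, a choice made after seeing that Cd68 itself was higher in every mKO library (log2 fold change 0.60, SE 0.15, edgeR adjusted p = 0.246), Ccl2 was at 0.294, 0.185 and 0.244 in mKO and 0.302, 0.269 and 0.292 in control, again with overlap. Ccl4 per count of the 5 markers was at 0.285, 0.2496 and 0.235 in mKO and 0.206, 0.215 and 0.257 in control, so its separation by CPM was not kept on this scale. Without Cd68, Ccl4 was at 0.490, 0.432 and 0.410 in mKO and 0.328, 0.324 and 0.398 in control, without overlap (exact permutation p = 0.1). Summed by group of genes, the CCR2 ligands were at 0.379, 0.209 and 0.332 in mKO and 0.382, 0.413 and 0.378 in control. The sum of Ccl3 and Ccl4 was at 0.769, 0.625 and 0.525 in mKO and 0.467, 0.517 and 0.647 in control. That of Ccl6 and Ccl9 was at 2.37, 1.89 and 2.01 in mKO and 2.38, 2.35 and 2.32 in control. All of these sums overlapped between genotypes, that of Ccl6 and Ccl9 only through mKO library 1.

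**Figure D4:**
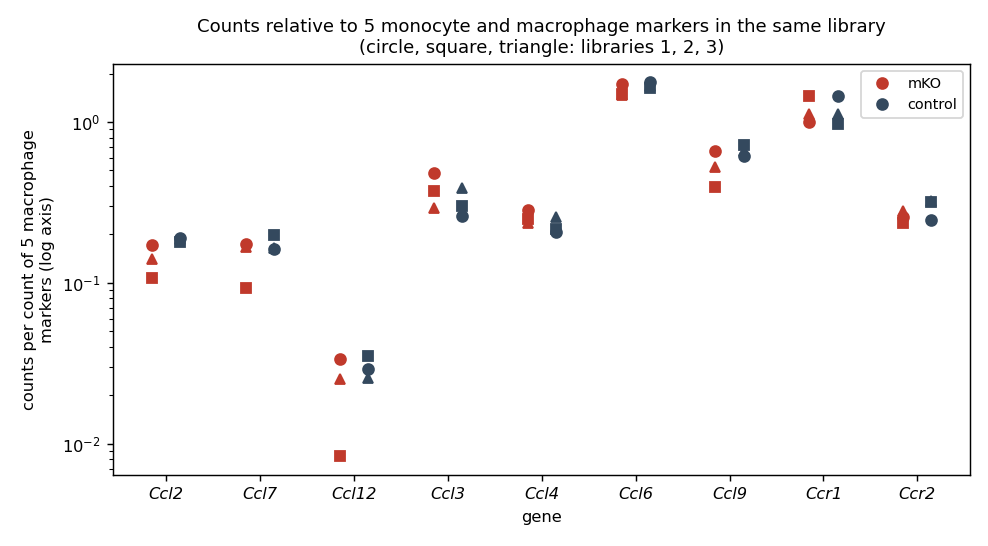
Counts of each of the 9 genes divided by the summed counts of 5 monocyte and macrophage markers in the same library, on a log axis, for mKO (red, left) and control (dark, right), with circles, squares and triangles for libraries 1, 2 and 3. Ccl2 is the gene whose mKO and control points do not overlap, and mKO library 2 lies lowest for Ccl2, Ccl7, Ccl12 and Ccl9.

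The genes whose log2 CPM was most like that of each chemokine over the 6 libraries were found by Pearson's r among 13885 genes of at least 1 CPM. This is a description, since with 6 libraries that share depth and tissue makeup many genes reach a high r. Ccr1 was most like Tpd52, Tlr13 and Gm4735, each at r = 0.998, and 342 genes reached an r of 0.95 with it. The other 8 genes had 13 to 48 such genes. Ccl9 was most like Uqcr10 and Ms4a6d, both at r = 0.991, and Ccl6 was most like Cnot11 at r = 0.997, with Tgfbi among its first 3 at r = 0.988. Ccl3 had Bud31 at r = 0.991 and Bcl2a1b, a survival gene of the BCL2 family, at r = 0.983. Ccl2 had Kcnk13 at r = 0.989, Ccl7 had Rab3il1 at r = 0.990, Ccl12 had Zfp41 at r = 0.996, Ccl4 had Slc41a3 at r = 0.995 after Fbxl15 and Ccr2 had Srsf9 at r = 0.990.

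Other genes of the CC pathway were taken from a list of 46, of which 38 are in the tables. None passed edgeR. At an unadjusted p under 0.05, 7 of the 38 were higher and 3 lower in mKO, where 5.6% of all genes were higher and 6.26% lower. The groups did not overlap for 11 that were higher and 4 that were lower, against 8.76% and 9.39% of all genes. DESeq2, which called 2.79% of all genes, called 4 of the list, with Ccl24 and Rgs2 higher and Ccl5 and Ccl21a lower. The median log2 fold change of the list was 0.18, against -0.03 over all genes.

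Among the ligands, Ccl24, which attracts eosinophils through CCR3, was at 8.43, 6.49 and 7.26 CPM in mKO libraries, against 2.86, 2.63 and 3.10 CPM in control libraries. Every mKO pool was above every control pool, with a log2 fold change of 1.37 (SE 0.16, edgeR adjusted p = 0.134). Ccl5, a product of T cells, NK cells and platelets, was at 9.37, 7.13 and 5.98 CPM in mKO libraries, against 12.7, 17.2 and 13.5 CPM in control libraries. All its mKO values were below the control values (edgeR adjusted p = 0.208). The summed T and NK cell markers were at 20.4 to 23.4 CPM in mKO and 20.96 to 39.6 CPM in control, and the summed platelet markers at 3062 to 4555 CPM in mKO and 3992 to 5912 CPM in control, and their part in the Ccl5 value was not tested. Ccl21a had a log2 fold change of -0.97 (SE 0.28, edgeR adjusted p = 0.308), but near-identical copies make its counts uncertain.

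Among the receptors, Ccr3, found on eosinophils, had a log2 fold change of 0.76 (SE 0.25, edgeR adjusted p = 0.334). Eosinophil, basophil and mast cell markers, 4 of which were listed, summed to 34.6 to 37.3 CPM in mKO and 13.8 to 30.8 CPM in control. The largest part was Siglecf, at 24.34, 30.1 and 22.7 CPM in mKO and 24.26, 11.9 and 13.4 CPM in control, with overlap. The others, the mast cell genes Cpa3, Cma1 and Mcpt4, reached at most 5.61 CPM in a library, and Epx, Prg2 and Mcpt8 were not listed. The part of these cells in the Ccl24 and Ccr3 values was not tested. The decoy receptor Ackr2, which takes up inflammatory CC chemokines, had a log2 fold change of -0.57 (SE 0.20, edgeR adjusted p = 0.354). Ccrl2, a non-signalling receptor of myeloid cells, had one of 0.18.

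The signalling genes below CCR1 and CCR2 had the most estimates above 0, at 17 of 21 against 45.9% of all genes, with a median of 0.24 on the log2 scale. At an unadjusted p under 0.05, 5 of the 21 were higher in mKO and 0 lower, against 5.6% and 6.26% of all genes. For cell type markers, the median log2 fold change was 0.37 for the neutrophil markers, with 7 of 10 above 0, and 0.16 for the monocyte and macrophage markers, with 8 of 11 above 0. None of the 8 endothelial markers was above 0, and their summed level was 624 to 762 CPM in mKO and 846 to 975 CPM in control, without overlap. For the 6 smooth muscle markers, 0 of which were above 0, the median was -0.83 and the sum was 619 to 1408 CPM in mKO and 1146 to 2972 CPM in control. The part of these cell types in the signalling gene values was not tested. Rgs2, which speeds the switching-off of G proteins, was at 172, 181 and 154 CPM in mKO libraries, against 113, 79.1 and 107 CPM in control libraries. Its groups did not overlap (log2 fold change 0.76, SE 0.17, edgeR adjusted p = 0.221). Rgs1, of the same family, had a log2 fold change of 0.71 and Rgs18 one of -0.54. The G protein subunits Gnai2 and Gnai3 had estimates of 0.24 and 0.30, and Gnb1 one of 0.18. For the receptor kinase Grk2 it was 0.34, and for the arrestins Arrb1 and Arrb2 it was 0.18 and 0.11. Rac2, Vav1 and Prex1, which drive the leukocyte cytoskeleton, had estimates of 0.44, 0.36 and 0.43.

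**Figure D5:**
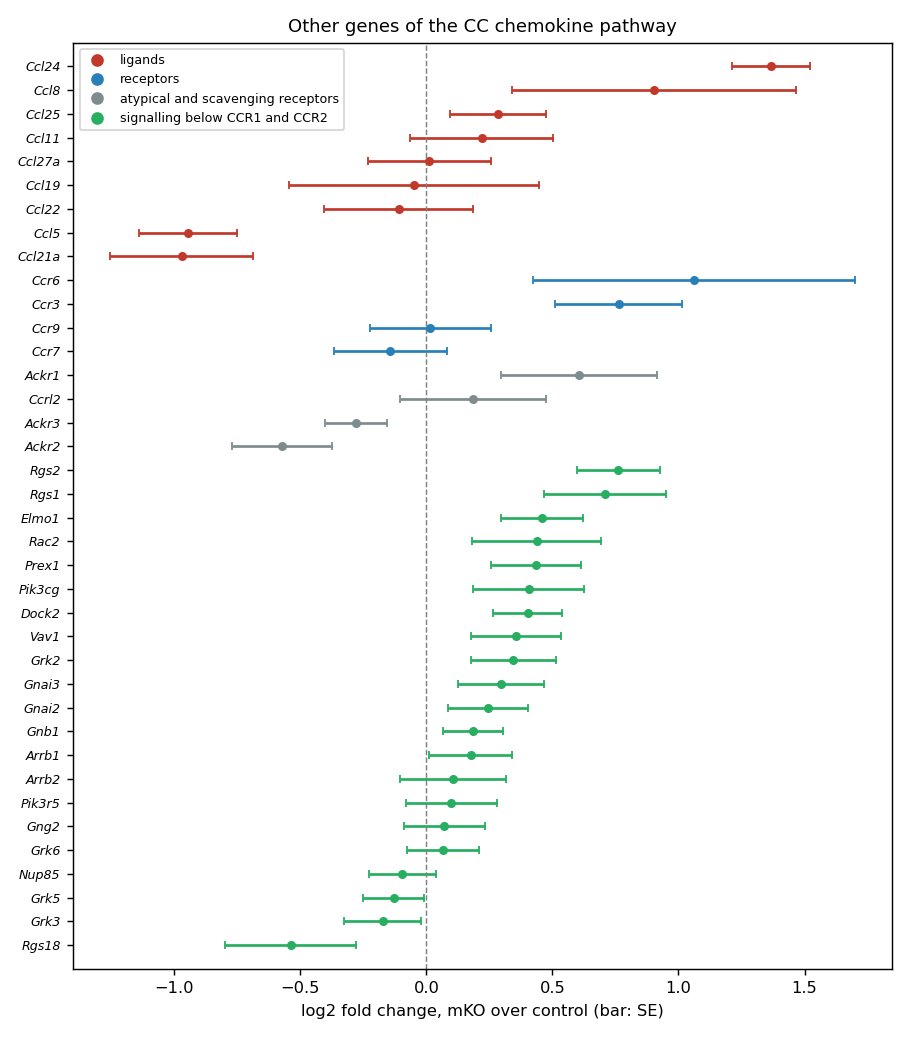
Log2 fold change, mKO over control, of the 38 other CC pathway genes in the tables, with bars for the SE, coloured by ligands, receptors, atypical and scavenging receptors, and signalling genes. Ccl24 has the highest estimate and Ccl21a the lowest, and 17 of the 21 signalling genes lie above 0.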

How the data were processed

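Whole ligated veins with their thrombi were profiled by polyadenylated RNA sequencing at 24 h, with 3 thrombi pooled per library and 3 libraries per genotype, per the labels' protocols. What the authors deposited is a table for each library of unnormalized counts over 16533 genes. The submitters' processing notes name the build GRCm39 and the tools featureCounts 2.0.1, HISAT2 2.1.0, Trim Galore 0.4.0 and FastQC 0.11.8, without roles. No source used here gives the annotation, strand setting or treatment of multi-matching reads. The exons of the 9 genes overlap no other gene's exons in the reference annotation.

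From the deposited counts, edgeR 4.0.16 (R 4.3.3) fitted the quasi-likelihood F-test with TMM scaling, robust dispersion and its default filter, which left 16523 genes, including all 9 described. P-values were adjusted by Benjamini-Hochberg over all of these, with a threshold of 0.05. Single values were also tested by the two-sided exact permutation test over the 6 libraries. DESeq2 1.42.0 and limma 3.58.1 voom, other scalings and filters, a replicate block, marker covariates and leaving out each library were alternatives; DESeq2 without each library and the marker ratio without Cd68 were chosen after seeing the data. Log2 CPM used a prior count of 2. The fits were tested on simulated data. No pair of replicate libraries agreed within sampling noise. Chromosomes, gene order and mRNA lengths came from GENCODE M21, an earlier build than the files', matched to 16492 identifiers; sequences came from RefSeq tables of GRCm38.p6. The 9 genes, the pathway list and the marker lists were chosen with earlier results of these data known. Of these lists, 1 pathway gene and 1 marker are not reported here and were left out of every count, sum, score and ratio. Named pathway genes were the 3 with the smallest unadjusted p in each direction and those averaging at least 100 CPM; for likeness, the 3 highest r per gene, of which some are printed. Ccl8, Ccl11 and the cell type markers are named in addition, after their values were seen.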

Additional observations from a re-analysis of the deposited data

How the results depend on the processing

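Ccl3, Ccl4, Ccl6, Ccr1 and Ccr2 kept an estimate above 0 under all 24 other settings. The CCR2 ligands and Ccl9 did not keep a sign, and the cause was not tested. Leaving out 1 library, edgeR log2 fold changes ranged from -0.31 to 0.08 for Ccl2, -0.14 to 0.31 for Ccl7, -0.55 to 0.33 for Ccl12, 0.37 to 0.85 for Ccl3, 0.40 to 0.65 for Ccl4, 0.11 to 0.33 for Ccl6, -0.23 to 0.19 for Ccl9, 0.15 to 0.59 for Ccr1 and 0.09 to 0.24 for Ccr2. DESeq2, leaving out 1 library, gave -0.28 to 0.087 for Ccl2, -0.12 to 0.32 for Ccl7, -0.54 to 0.34 for Ccl12, 0.41 to 0.87 for Ccl3, 0.43 to 0.67 for Ccl4 and -0.21 to 0.20 for Ccl9. Ccl9 was at -0.0202 with library totals, -0.0208 with voom, -0.00709 with voom quality weights and -0.14 with the monocyte score as a covariate. With that score Ccl7 was at -0.0144, and with the wall score Ccl12 was at 0.33 and Ccr1, still above 0, at 0.04. DESeq2 called 461 genes against 0 with edgeR, and 4 of the CC pathway list against 0. Leaving out 1 library, edgeR called 0 to 7 genes (4 without mKO library 3, 7 without control library 1 and 2 without control library 3) and DESeq2 242 to 763, with 3 to 4 of the pathway list and 0 to 2 of the 9 genes. The adjusted p over the settings (other than DESeq2 without a library) was 0.188 to 0.846 for Ccl3 and 0.0784 to 0.758 for Ccl4. With the replicate block edgeR called 0 genes and gave 0.61 for Ccl3, 0.53 for Ccl4 and -0.0177 for Ccl9. Same-numbered libraries had deviations correlating at -0.13, -0.15 and -0.27, and differently numbered ones at -0.09 to 0.24. With 3 libraries a group these values cannot tell whether same-numbered libraries share a batch. With 3 pools a group, intervals for Ccl12 and Ccr1 admit changes that this design could not call.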

Other observations

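Within each library, the 36 ratios between pairs of the 9 genes were also compared, as values that need no scaling. The groups did not overlap for 4 of the 36, at an exact permutation p of 0.1 each, the smallest possible. After Benjamini-Hochberg adjustment over the pairs this p was 0.72. By CPM, 18.2% of all genes had no overlap, and the share over ratios of other genes was not computed. All 4 pairs involve Ccl4 or Ccl2, the 36 pairs share genes, and Ccl4 by itself already had no overlap by CPM. The ratio of Ccl2 to Ccl4 was 0.600, 0.429 and 0.595 in mKO libraries 1 to 3, against 0.922, 0.833 and 0.733 in control libraries 1 to 3. That of Ccl4 to Ccl6 was 0.166, 0.167 and 0.159 in mKO, against 0.117, 0.132 and 0.154 in control. The ratio of Ccl4 to Ccl9 was 0.434, 0.634 and 0.445 in mKO, against 0.335, 0.301 and 0.391 in control. For Ccl2 to Ccl6 it was 0.0998, 0.0715 and 0.0946 in mKO, against 0.108, 0.1095 and 0.113 in control. Among the neighbours in the CCR2 ligand cluster, Ccl8 was at 9.39, 2.44 and 5.06 CPM in mKO libraries, against 3.91, 3.57 and 1.55 CPM in control libraries, and shared the high first and low second mKO pool with Ccl7 and Ccl12. Ccl11, which attracts eosinophils, was at 12.4, 6.52 and 6.20 CPM in mKO, against 8.30, 7.20 and 6.09 CPM in control.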
